A study of Homo sapiens with 8 samples.

Results

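A172 cells with an inducible hairpin against HDAC2 (shHDAC2) were set against A172 cells with a control hairpin (shControl), both on doxycycline. The arrays were chosen by their titles and treatment labels as those of DOX(+) cells, and they are 4 of the 8 arrays of the series, 2 for shHDAC2 and 2 for shControl. A172 is an established human glioblastoma line. In the DOX(+) groups, doxycycline was given at 2.5 μg/ml to switch the hairpins on, and cells were harvested after 48 h. The other 4 arrays, 2 for shHDAC2 and 2 for shControl, hold the same lines without doxycycline, DOX(-). All cells carried a doxycycline-inducible vector and had been selected with puromycin, and the methods give no clone number. There is 1 hairpin line per construct here, so an effect of the line and an effect of the hairpin cannot be told apart between constructs. In 2 of the 4 groups, shControl DOX(+) and shHDAC2 DOX(-), the source name in the labels gives the opposite construct, and groups were taken from titles and treatments.

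HDAC2 is a class I histone deacetylase. It removes acetyl groups from histone tails within the Sin3, NuRD and CoREST complexes, which mostly hold genes down, and HDAC1 is its close paralogue in the same complexes. HDAC inhibition in cultured tumour cells is known for cell cycle arrest, p53 target genes and oxidative stress genes. Whole-transcript arrays (Human Gene 2.0 ST) read labelled cDNA by hybridization to probes along each transcript, and the values below are log2 signals after RMA, a background correction with quantile normalization. A log2 difference of 1 is 2-fold.

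The 8 arrays had medians between 3.64 and 3.68 over all transcript clusters. The 2 shHDAC2 DOX(+) arrays correlated with each other at 0.986 and the 2 shControl DOX(+) arrays at 0.988, against 0.982 to 0.986 between the groups. On the first principal component the shHDAC2 DOX(-) arrays lay far from all others, with scores of 63.7 and 63.5 against -22.2 to -19.7. On the second component the shHDAC2 DOX(+) arrays scored -25.2 and -18.6 and the shControl DOX(+) arrays 11.5 and 11.1. Of 8 glioma and astrocyte markers, 0 differed between the constructs on doxycycline at an adjusted p under 0.05, against 3.83% of all genes. The intermediate filament VIM (signals 9.34 to 10.3 over all arrays) and the adhesion receptor CD44 (8.19 to 8.89) were high, while S100B (2.58 to 3.26) and AQP4 (2.20 to 3.15) lay below the median on every array.

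HDAC2, the gene the hairpin targets, was read at 4.95 and 5.34 on the shHDAC2 DOX(+) arrays, against 6.14 and 6.15 on the shControl DOX(+) arrays. Both shHDAC2 arrays lay below both shControl arrays, and replicate 1 was the lower of the pair. The difference was -0.999 on the log2 scale (standard error 0.14, 95% interval -1.32 to -0.68, adjusted p = 0.00858 from limma). Before doxycycline, HDAC2 already differed between the lines, at 5.68 and 5.80 in shHDAC2 DOX(-) and 6.42 and 6.30 in shControl DOX(-), by a difference of -0.61 (adjusted p = 0.0101). The construct difference with doxycycline minus that without it was -0.38 (adjusted p = 0.243), which did not pass. The adjusted p on doxycycline was 0.0592 without shHDAC2 DOX(+) replicate 1, 0.0672 without shControl DOX(+) replicate 1 and 0.0686 without shControl DOX(+) replicate 2. Of 19 measured genes on a list of HDAC2 complexes and related genes such as HDAC8, HDAC2 alone, the target of the hairpin, was called. This is 5.26%, against 3.83% over all genes. HDAC8, another class I deacetylase, was at 6.19 and 6.23 in shHDAC2 and 5.86 and 6.01 in shControl, a difference of 0.28 (adjusted p = 0.264).

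Of 14884 genes tested, 570 (3.83%) differed between shHDAC2 and shControl cells on doxycycline at an adjusted p under 0.05. Of these, 119 (0.8%) were higher and 451 (3.03%) lower in shHDAC2 cells, so lower calls made up most of the set. The called genes that were higher had a median difference of 0.66, with 16 over 2-fold, and those that were lower had a median of -0.73, with 80 over 2-fold. Over all genes the median difference was -0.01. Called or not, 3255 genes (21.9%) had both shHDAC2 arrays above both shControl arrays and 3977 (26.7%) had both below, and the arrays of all 570 called genes were separated in this way. Protein-coding genes were called more often (4.41% of 11920) than lncRNA genes (1.79% of 1398) and microRNA genes (1.21% of 1072), and these shares were not tested against each other. A second quantile normalization of the same arrays gave 167 higher and 360 lower, or 31.7% higher against 20.9% as deposited.

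**Figure D1:**
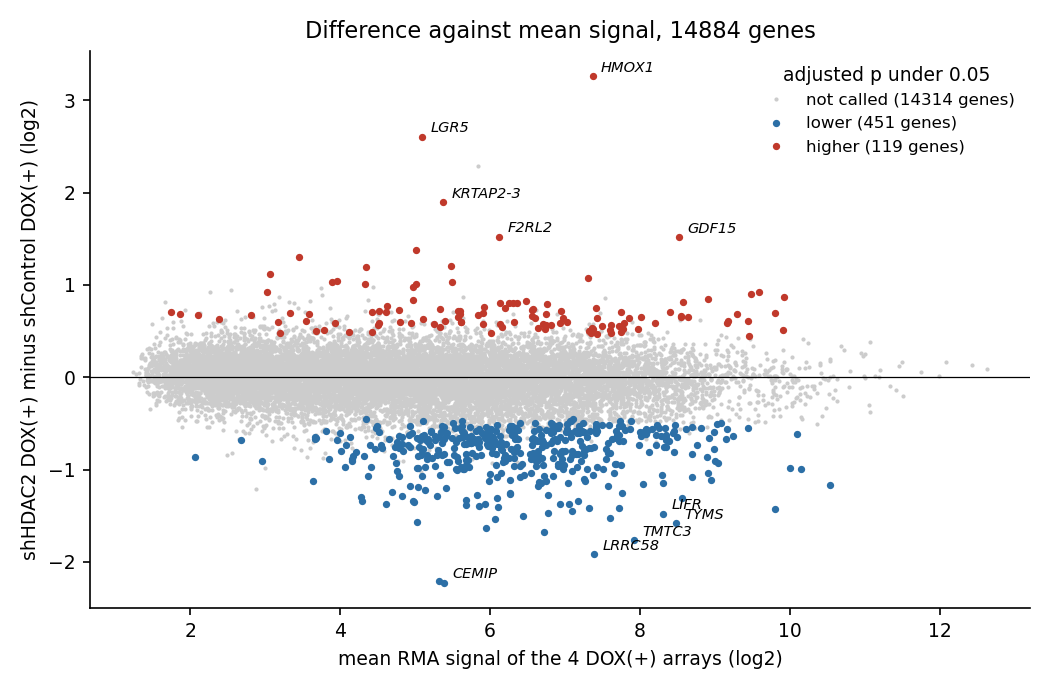
The vertical axis is the difference shHDAC2 DOX(+) minus shControl DOX(+) and the horizontal axis the mean signal of these 4 arrays, both on the log2 scale, with 1 point per gene. The 119 higher genes (red) reach 3.26 at HMOX1, and the 451 lower genes (blue) reach -2.22 at CEMIP.

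The counts rest on few arrays. Leaving 1 array out gave 94 calls without shHDAC2 DOX(+) replicate 1, 296 without shHDAC2 DOX(+) replicate 2, 110 without shControl DOX(+) replicate 1 and 117 without shControl DOX(+) replicate 2. Leaving out an array of the groups without doxycycline gave 413 to 526, and 526 genes were called without both shHDAC2 DOX(-) arrays. Of the 570 genes, 76 (13.3%) were called in the same direction whichever of the 8 arrays was left out, 10 higher and 66 lower. The methods' t-test on the 4 arrays called 0 genes after Benjamini-Hochberg adjustment and 1860 at an unadjusted p under 0.05, where limma had 2703 (18.2%). Second transcript clusters were not called for HDAC2 (mean signal 2.35), CLSPN (2.04), VCAN (2.41) and TIMP3 (3.92), which differed by -0.02, 0.26, 0.05 and -0.25. Those of TXNIP (0.26, adjusted p = 0.506), LPAR1 (-0.12, adjusted p = 0.831) and CCN2 (0.64, adjusted p = 0.456) were not called either, while that of DUSP5 was called higher (0.77).

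**Figure D2:**
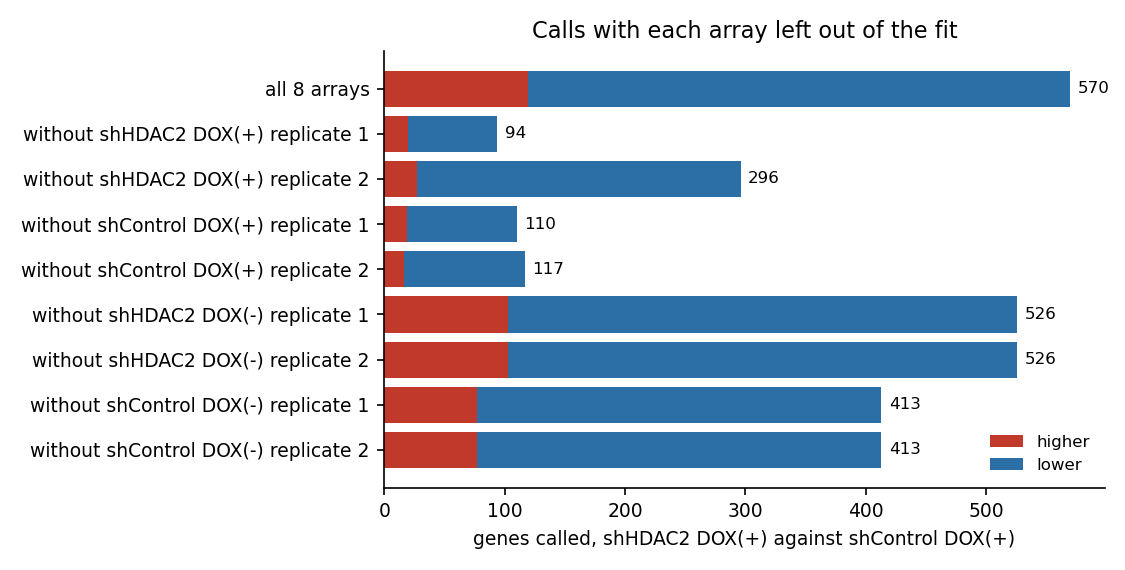
The bars count the genes called between shHDAC2 DOX(+) and shControl DOX(+) cells, higher in red and lower in blue, with all 8 arrays and with each array left out. The count is 570 with all arrays and 94 to 296 when an array of the compared groups is left out.

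The strongest rise was in HMOX1, heme oxygenase 1, which breaks down heme and is a classic NRF2 target. It was at 8.91 and 9.08 in shHDAC2 cells and at 5.82 and 5.65 in shControl cells, so that the groups stood far apart. The difference was 3.26 (standard error 0.16, adjusted p = 8.43e-05), or 9.59-fold. LGR5, the R-spondin receptor that strengthens Wnt signalling and marks several epithelial stem cells, was at 6.35 and 6.44 in shHDAC2 and 3.64 and 3.94 in shControl cells. It rose by 2.61 (standard error 0.13, adjusted p = 8.43e-05), or 6.09-fold. The shControl signals of LGR5 lie near the median of all clusters, 3.66, which leaves the size of its rise uncertain.

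The other large rises were spread over several functions. GDF15, a TGF-β family cytokine made under stress, was at 9.31 and 9.25 in shHDAC2 and 7.74 and 7.78 in shControl cells, higher by 1.52 (adjusted p = 0.000466). The arrays of each group lay close together and the groups far apart. F2RL2, the protease-activated receptor PAR3, was at 6.79 and 6.96 in shHDAC2 and 5.33 and 5.38 in shControl cells, higher by 1.52. CLDN1, a tight junction claudin, was higher by 1.37, the sphingosine-1-phosphate receptor S1PR1 by 1.19 and MKNK2, a kinase of the translation factor eIF4E, by 1.07. ATF3, a stress-induced transcription factor of the ATF/CREB family, was higher by 1.21 and MAMDC2 by 1.04. KRTAP2-3, a keratin-associated protein gene, was higher by 1.90, but near-identical family members make its identity uncertain.

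Lower signals limit some of these. PLCE1-AS1, a transcript antisense to the phospholipase gene PLCE1, was at 3.74 and 4.48 in shHDAC2 and 2.98 and 2.62 in shControl cells (difference 1.30, adjusted p = 0.0246). PNRC2, which takes part in mRNA decapping, was at 3.61 and 3.64 in shHDAC2 and 2.66 and 2.37 in shControl cells (1.11, adjusted p = 0.00863), below the median on all 4 arrays. The genes called higher whichever array was left out were HMOX1, LGR5, KRTAP2-3, F2RL2, GDF15, CLDN1, S1PR1, MKNK2, TXNIP and STK40. TXNIP, a thioredoxin inhibitor that also limits glucose uptake, and the kinase-like gene STK40 were named after their values were seen, with differences of 1.03 and 0.83. A second cluster of TXNIP was not called, as given above.

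The deepest fall was in CEMIP, a secreted protein needed for hyaluronan breakdown. It was at 4.33 and 4.22 in shHDAC2 cells and at 6.42 and 6.57 in shControl cells, a difference of -2.22 (standard error 0.11, adjusted p = 8.43e-05), or 4.67-fold. EDIL3, an integrin-binding matrix protein, was at 5.04 and 5.22 in shHDAC2 and 6.66 and 6.85 in shControl cells, a difference of -1.63 (adjusted p = 0.00055). Cytokine and growth factor receptors were also among the deepest falls. KIT, the receptor of stem cell factor, differed by -1.56 (4.26 and 4.22 in shHDAC2, 5.66 and 5.95 in shControl). LIFR, the receptor of leukaemia inhibitory factor, differed by -1.48 (7.54 and 7.61 in shHDAC2, 9.12 and 8.98 in shControl).

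CBX5, which encodes the heterochromatin protein HP1α, was at 5.68 on both shHDAC2 arrays and at 7.20 and 7.17 on the shControl arrays, a difference of -1.50 (adjusted p = 0.000713). LRRC58, a leucine-rich repeat gene, differed by -1.92, TMTC3, an endoplasmic reticulum mannosyltransferase of cadherins, by -1.76, and STK38, a kinase of the NDR family, by -1.67. DEPDC1, a DEP domain gene expressed in dividing cells, was at 5.20 and 5.39 in shHDAC2 and at 6.83 and 6.82 in shControl cells (-1.53, adjusted p = 0.00055). Its second transcript cluster was also called lower (-1.05, adjusted p = 0.00415). Among the 12 largest falls, the pseudogenes HNRNPA1P33 (-2.20) and CHORDC1P4 (-1.53) share sequence with their parent genes, so that their signal cannot be told apart from the parents'.

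**Figure D3:**
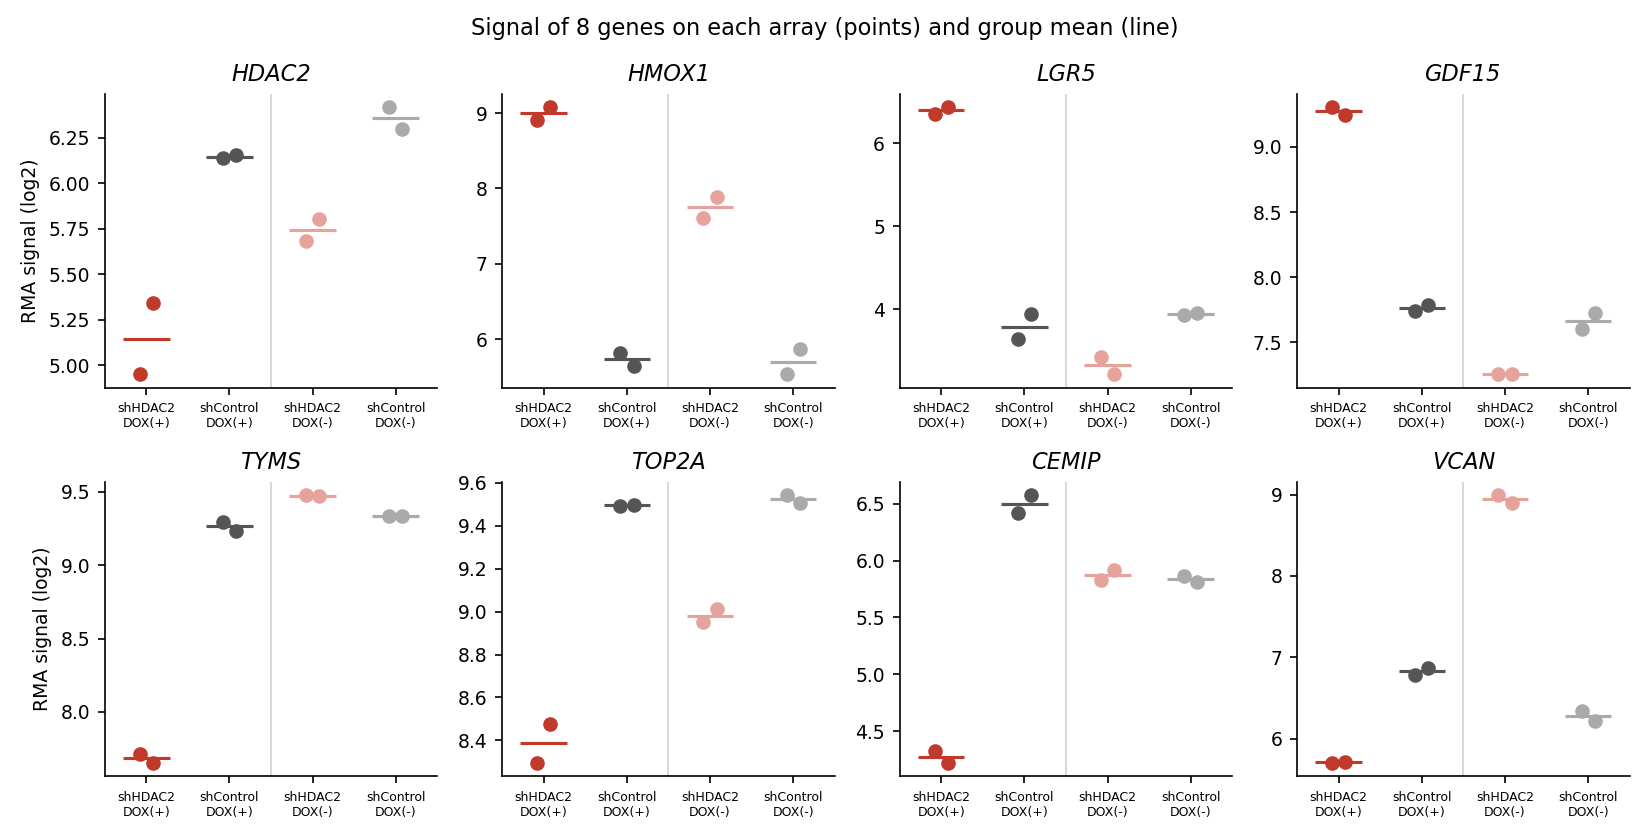
The vertical axis is the log2 RMA signal, points are arrays and lines are means of 2 arrays, with shHDAC2 DOX(+), shControl DOX(+), shHDAC2 DOX(-) and shControl DOX(-) in this order. On doxycycline the arrays of HDAC2, TYMS, TOP2A, CEMIP and VCAN are lower in shHDAC2 cells and those of HMOX1, LGR5 and GDF15 higher, with no overlap.

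Genes of nucleotide supply, DNA replication and mitosis had 2, 2 and 5 lower calls and 0 higher ones, where 451 of the 570 calls over all genes were lower. TYMS, thymidylate synthase, makes dTMP for DNA synthesis and is an E2F target. It was at 7.72 and 7.66 in shHDAC2 cells and at 9.30 and 9.23 in shControl cells, a difference of -1.58 (standard error 0.10, adjusted p = 0.000301), or 2.99-fold. The second-lowest p of the list was that of PPAT, which opens purine synthesis (-0.56, adjusted p = 0.0425). Thus 2 of 17 nucleotide synthesis genes (11.8%) fell and 0 rose, against 3.03% lower over all genes. TYMS was chosen with earlier results of these data known, so its call adds nothing to this share. The PPAT call was lost without both shHDAC2 DOX(-) arrays and with only the 4 DOX(+) arrays. RRM1, the large subunit of ribonucleotide reductase, differed by -0.41 (adjusted p = 0.0919) without passing.

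Of 23 replication genes, 2 (8.7%) fell and 0 rose, against 3.03% lower over all genes. CLSPN, claspin, which carries the ATR signal to CHEK1 at stalled forks, differed by -0.89 (5.18 and 5.34 in shHDAC2, 6.13 and 6.19 in shControl, adjusted p = 0.00795). CCNE2, a cyclin of S phase entry, differed by -0.54 (adjusted p = 0.0492), just inside the threshold. Of 12 DNA repair genes 0 were called, against 3.83% over all genes, although 11 had a difference below 0 with a median of -0.28. The exonuclease EXO1, for example, was at 6.56 and 6.58 in shHDAC2 and 6.96 on both shControl arrays (-0.39, adjusted p = 0.0824).

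Of 23 mitosis genes, 5 (21.7%) fell and 0 rose, against 3.03% lower over all genes. A difference below 0 was seen in 21 of them (median -0.26), against 51.8% of all genes. TOP2A, the topoisomerase that untangles sister chromatids, was at 8.30 and 8.48 in shHDAC2 and 9.49 and 9.50 in shControl cells. The difference was -1.11 (adjusted p = 0.0019), or 2.16-fold. NDC80, a kinetochore protein, differed by -0.82 (adjusted p = 0.0302), the cytokinesis kinesin KIF23 by -0.63 (adjusted p = 0.029) and BUB1, a spindle checkpoint kinase, by -0.62 (adjusted p = 0.0156). MKI67, the proliferation marker Ki-67, was the remaining call (8.06 and 8.28 in shHDAC2, 8.74 and 8.76 in shControl, -0.58, adjusted p = 0.032), named after its value was seen. Of these 5 calls, TOP2A was the 1 that passed whichever array was left out. Without doxycycline, 5 of the 23 genes were called lower in shHDAC2 cells and 1 higher, against 17% and 14% of all genes. TOP2A (-0.54) and BUB1 (-0.51) were lower there too. The construct difference with doxycycline minus that without it passed in limma for TOP2A (-0.57, adjusted p = 0.034). It did not pass for NDC80, KIF23, BUB1 and MKI67 (adjusted p = 0.0776, 0.383, 0.693 and 0.0786).

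Promoter windows of the fallen mitosis genes are shown because the cell cycle homology region, TTTGAA, is the element through which the DREAM and MuvB complexes restrain and then release mitotic genes. The letters TTTGAA were searched on both strands from 250 bases before to 50 bases after each RefSeq start (GRCh38.p14). They were found in 14 of 20 promoters of the mitosis list (70.0%), and in 4 of the 5 whose genes fell, against 11.4% of 9707 tested protein-coding genes and 15.4% of 27305 promoters in all. Windows of 30 bases from these 4 follow, the nearer to the start where a promoter held 2 matches, with the letters of the match in capitals, or of its reverse complement TTCAAA.
TOP2A (chr17:40418030-40418059, minus strand): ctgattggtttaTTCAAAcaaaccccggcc
NDC80 (chr18:2571542-2571571, plus strand): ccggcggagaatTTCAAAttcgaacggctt
KIF23 (chr15:69414282-69414311, plus strand): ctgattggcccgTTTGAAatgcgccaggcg
MKI67 (chr10:128126435-128126464, minus strand): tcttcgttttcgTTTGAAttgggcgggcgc
Over all called genes the share was 15.4% of 364 promoters of lower genes and 9.09% of 77 promoters of higher genes, against 11.4% of the tested genes. A match is a string of letters and not a shown binding site.

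The E2F site TTTCCCGC was searched in the same way for the replication genes, many of which E2F factors drive at S phase entry. It was in 8 of 19 replication promoters (42.1%) and in 1 of 15 nucleotide synthesis promoters, that of TYMS, against 2.28% of tested protein-coding genes. The promoter of CCNE2 was not among those searched. The 2 windows below belong to the called genes of both lists with a match, which lay on the strand opposite to the gene.
TYMS (chr18:657603-657632, plus strand): gcgggacggccGCGGGAAAaggcgcgcgga
CLSPN (chr1:35769965-35769994, minus strand): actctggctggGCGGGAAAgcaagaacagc
Of the promoters of all lower genes 1.92% held it, and of those of all higher genes 1.3%.

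Some genes of the oxidative stress and p53 programmes were called in the higher direction on doxycycline. Of 30 listed NRF2 targets, 14 were measured. Among these 14, 4 (28.6%) rose and 0 fell, against 0.8% higher over all genes. NRF2 is the transcription factor that switches on antioxidant genes when KEAP1 is modified. Beside HMOX1, the calls were SRXN1, sulfiredoxin (8.19 and 8.15 in shHDAC2, 7.58 and 7.47 in shControl, 0.64, adjusted p = 0.0472), TKT, transketolase of the pentose phosphate pathway (0.58, adjusted p = 0.0231), and OSGIN1 (0.54, adjusted p = 0.0361). TXNRD1, thioredoxin reductase, was at 8.85 and 8.85 in shHDAC2 and 8.30 and 8.17 in shControl cells, and with 0.61 it missed the threshold (adjusted p = 0.0517). HMOX1 had by far the largest difference of the list, whose median was 0.22, against -0.01 over all genes. HMOX1 was chosen with earlier results of these data known, so its call adds nothing to the share above. Without doxycycline, 1 of the 14 was called higher in shHDAC2 cells and 6 lower, with a list median of -0.33.

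Of 28 listed p53 targets, 14 were measured. Among these 14, 4 (28.6%) rose and 0 fell, against 0.8% higher over all genes. The list median was 0.15, and 5 of the 14 had a difference below 0. The 4 rises were not a shift of the whole list. The called genes were GDF15, the sestrin SESN1 (5.92 and 5.98 in shHDAC2, 5.20 and 5.28 in shControl, 0.72, adjusted p = 0.0148), the apoptosis-enhancing nuclease AEN (0.64, adjusted p = 0.0205) and TRIAP1 (0.60, adjusted p = 0.0277). TRIAP1 is known as a p53-regulated inhibitor of apoptosis. Death genes proper gave 0 calls among 11 pro-apoptotic and 0 among 9 anti-apoptotic genes, against 3.83% over all genes. At that share lists this short would hold few calls, so these counts say little. Of the 11 pro-apoptotic genes, 5 had both shHDAC2 arrays above both shControl arrays and 3 had both below. PMAIP1, which encodes NOXA, was at 6.33 and 6.44 in shHDAC2 and 5.82 and 6.01 in shControl cells (0.47, adjusted p = 0.0623), and BAK1 differed by 0.43 (adjusted p = 0.0857). BAX differed by -0.08 (adjusted p = 0.836) and APAF1, the apoptosome scaffold, by -0.15 (adjusted p = 0.589), with overlapping arrays for BAX.

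Of 23 immediate early genes, which growth factors and stress switch on within the hour, 3 (13%) rose and 0 fell, against 0.8% higher over all genes. They were ATF3 (6.05 and 6.10 in shHDAC2, 5.03 and 4.71 in shControl, adjusted p = 0.00795), DUSP5, a phosphatase of ERK (0.72, adjusted p = 0.0392), and JUND, an AP-1 subunit (0.59, adjusted p = 0.0224). FOSL1, another AP-1 subunit, differed by 0.62 (adjusted p = 0.0522). Without doxycycline, 14 of the 23 were called higher in shHDAC2 cells and 4 lower, against 14% and 17% of all genes. The list median was then 0.59, against 0.18 on doxycycline. ATF3 and DUSP5 differed by 1.02 and 0.82 without doxycycline, and JUND by 0.01. ATF3 also stands on the list of ATF4 and unfolded protein response genes, where it was the 1 rise of 17 (11.8% called, against 3.83% over all genes). The 1 fall there was VLDLR, the very low density lipoprotein receptor (4.05 and 4.56 in shHDAC2, 5.66 and 5.65 in shControl, -1.35, adjusted p = 0.00415).

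The extracellular matrix list had the largest share of calls among lists with at least 5 measured members. Of 24 matrix genes, 7 fell and 2 rose (37.5%), against 3.83% over all genes, and the list median was -0.33. VCAN, the proteoglycan versican of the glioma matrix, was at 5.70 and 5.72 in shHDAC2 and 6.79 and 6.87 in shControl cells (-1.12, adjusted p = 0.00166). NID1, a basement membrane linker, differed by -1.03 (8.30 and 8.47 in shHDAC2, 9.37 and 9.47 in shControl), the metalloproteinase inhibitor TIMP3 by -0.80 and FBN1, fibrillin of microfibrils, by -0.73. Enzymes of the matrix fell with them, named after their values were seen except LOX: LOXL1 (-0.64) and LOX (-0.58) cross-link collagen and elastin, and MMP14 (-0.60) is a membrane collagenase. The 2 rises were THBS1, thrombospondin (8.79 and 8.96 in shHDAC2, 8.17 and 8.28 in shControl, 0.65, adjusted p = 0.024), and CCN2, connective tissue growth factor (0.51, adjusted p = 0.041), likewise named after their values were seen. Of the 9 calls, VCAN alone passed whichever array was left out.

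Wnt pathway genes split. Of 37 measured, 1 rose and 3 fell (10.8%, against 3.83% over all genes). The rise was LGR5, and the falls were the Wnt receptors FZD7 (4.79 and 4.54 in shHDAC2, 5.43 and 5.57 in shControl, -0.84, adjusted p = 0.0231), FZD1 (-0.66, adjusted p = 0.021) and FZD5 (-0.60, adjusted p = 0.0201). LGR5 passed whichever array was left out, while each of the 3 frizzled calls was lost whichever of the 4 compared arrays was left out. The list median was -0.04. LGR5 was chosen with earlier results of these data known, so its call adds nothing to the share. In limma, FZD7 and FZD5 were also lower without doxycycline (-0.79 and -0.74, adjusted p = 0.00448 and 0.000792). Their construct difference with doxycycline minus that without it was -0.05 and 0.14 (adjusted p = 0.919 and 0.617). FZD1 was higher in shHDAC2 cells without doxycycline (0.65).

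Of 24 interferon response genes, 3 (12.5%) fell and 0 rose, against 3.03% lower over all genes. A difference below 0 was seen in 20 of them (median -0.26), against 51.8% of all genes, and 0 of the 3 calls passed whichever array was left out. SAMD9, an antiviral translation inhibitor, was at 6.81 and 7.14 in shHDAC2 and 8.08 and 8.24 in shControl cells (-1.18, adjusted p = 0.00795). Its paralogue SAMD9L is close in sequence. SAMD9L, not 1 of these 3 calls and named after its value was seen, was called lower whichever array was left out (-1.12, adjusted p = 0.00166). The helicase DDX60 differed by -0.89 (adjusted p = 0.0256) and USP18, which removes ISG15, by -0.73 (adjusted p = 0.032). Of 17 inflammatory NF-κB targets, CCL2 alone was called (5.88%, against 3.83% over all genes). This monocyte-attracting chemokine was at 5.32 and 5.61 in shHDAC2 and 6.57 and 6.47 in shControl cells (-1.05, adjusted p = 0.00415). CXCL8, interleukin 8, was at 3.13 and 3.74 in shHDAC2 and 2.82 and 2.51 in shControl cells (0.77, adjusted p = 0.118). The lysosomal protein CD68, on the list of microglia and leukocyte markers, was at 7.77 and 7.86 in shHDAC2 and 8.37 and 8.40 in shControl cells (-0.57, adjusted p = 0.0216), named after its value was seen. It was 1 of 2 such markers measured, whose log2 signals summed to 12.5 and 12.7 in shHDAC2 and 13.2 and 13.5 in shControl cells. All samples were cultures of the A172 line. The relation of these signals to the falls of CCL2 and the interferon genes was not tested.

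Metabolic lists had 0 to 3 calls each. Of 24 listed genes of glycolysis and glucose transport, 9 were measured and 0 of these were called, against 3.83% over all genes. The rest of the list was not tested, and 9 genes would hold few calls at that share. HK2, the hexokinase of tumour glycolysis, differed by 0.19 (adjusted p = 0.587) and LDHA, lactate dehydrogenase A, by -0.42 (adjusted p = 0.155). Of 16 hypoxia genes 3 were called (18.8%, against 3.83% over all genes). The oxygen sensor EGLN1 rose (0.55, adjusted p = 0.0438), while LOX and VEGFA, the angiogenic growth factor, fell, the second by 0.56 (5.19 and 5.33 in shHDAC2, 5.82 on both shControl arrays, adjusted p = 0.032). None of the 3 passed whichever array was left out. Of 21 cholesterol and fatty acid genes 2 were called (9.52%, against 3.83% over all genes), and neither passed whichever array was left out. SQLE, squalene epoxidase, and INSIG1, the brake of SREBP processing, fell by 0.68 and 0.59. Among ribosomal proteins, 1 of 73 mitochondrial (MRPL42, -0.69) and 1 of 52 cytosolic (RPL31, 0.70, with signals near the median or below) were called, each list below the background of 3.83%. Yet 8 of the 52 cytosolic genes had a difference below 0, with a list median of 0.18. Both shHDAC2 arrays lay above both shControl arrays in 30 of the 52 and below in 2, against 21.9% and 26.7% of all genes. The median of the 73 mitochondrial genes was 0.07. Without doxycycline the cytosolic median was 0.20. Of 18 neuronal REST targets, a set that HDAC-containing REST complexes silence, 0 were called (median 0.03), against 3.83% over all genes.

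**Figure D4:**
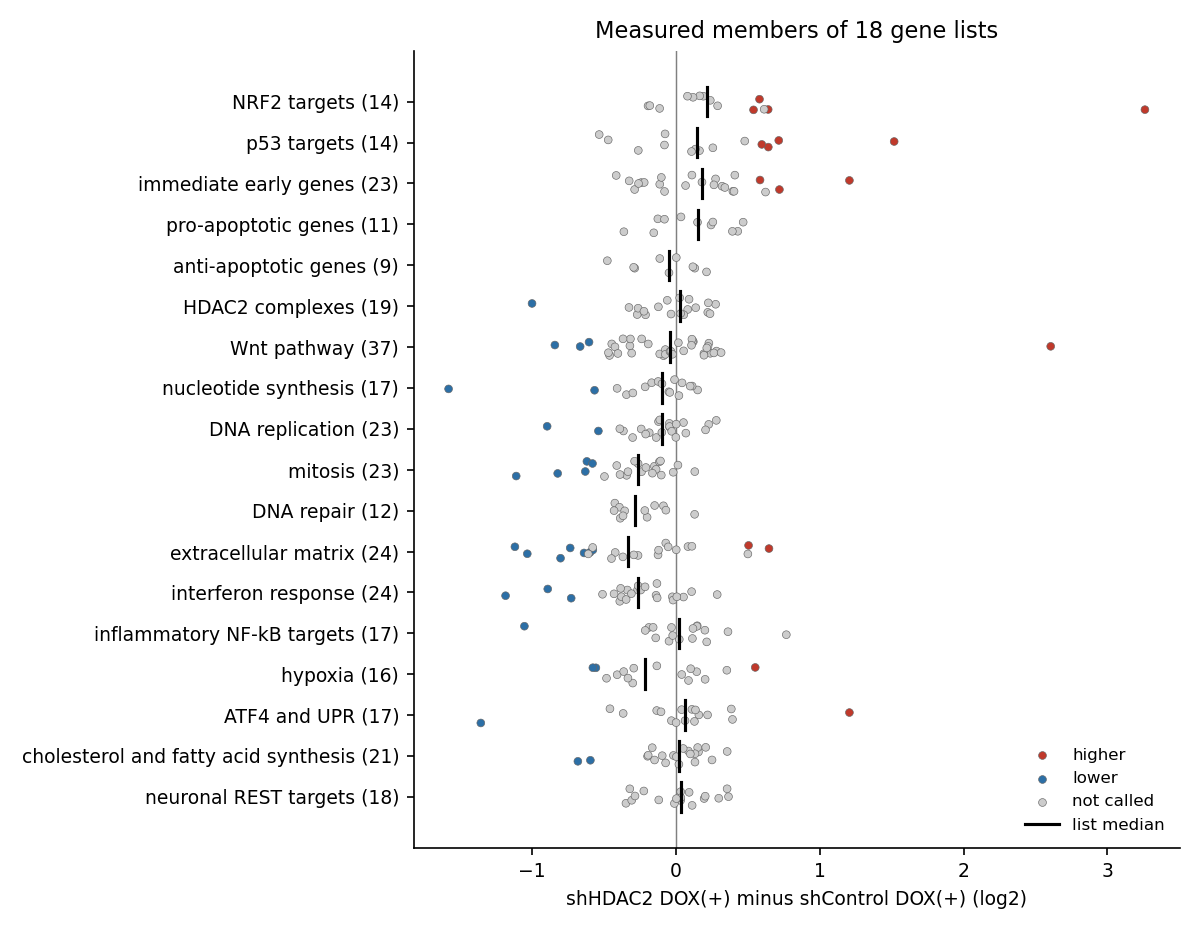
The horizontal axis is the log2 difference shHDAC2 DOX(+) minus shControl DOX(+), each point is a measured member of a list (number in parentheses) and the black bar is the list median. Called members lie on the higher side for NRF2 and p53 targets, 4 in each, and on the lower side for mitosis, 5, while extracellular matrix holds 7 lower and 2 higher.

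Without both shHDAC2 DOX(-) arrays, the counts of NRF2 targets (4 higher), p53 targets (4 higher) and mitosis genes (5 lower) were as before. Of matrix genes 7 were then lower and 1 higher, of immediate early genes 2 higher, and nucleotide synthesis and replication had 1 lower gene each. Of hypoxia genes 0 were then higher and 1 lower, with EGLN1 and LOX lost, and of cytosolic ribosomal proteins 0 were called, with RPL31 lost. With each array left out in turn, the calls that passed every time were 1 of the 4 NRF2 targets, 1 of the 4 p53 targets and 0 of the 3 immediate early genes.

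The same constructs could be compared without doxycycline on the other 4 arrays, which share no array with the comparison above. There 4602 of 14884 genes (30.9%) differed, 2077 (14%) higher and 2525 (17%) lower in shHDAC2 cells, and 526 genes were called on doxycycline when the shHDAC2 DOX(-) arrays, which lay far from all others, were left out of the fit. Of the 119 genes higher in shHDAC2 cells on doxycycline, 30 were also called higher without it, 31 were called lower and 58 were not called. Of the 451 lower genes, 202 were also called lower without it, 93 were called higher and 156 were not called. In shControl cells, 0 genes were called by limma between DOX(+) and DOX(-) cells, with 801 (5.38%) at an unadjusted p under 0.05. Without passing, shControl signals of some called genes moved on doxycycline, KRTAP2-3 by -0.98, EDIL3 by 0.78, CEMIP by 0.66 and VCAN by 0.55. Such moves are part of the differences given above. VEGFA, DUSP5 and CCN2 were among the genes no longer called against all 4 shControl arrays.

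The change of the construct difference upon doxycycline was tested as an interaction, and 3017 genes (20.3%) passed, 1475 (9.91%) with a more positive difference on doxycycline and 1542 (10.4%) with a more negative one. Among the 119 higher genes 81 passed, 75 of them with a more positive difference on doxycycline, and 43 of these were not called without it. Among the 451 lower genes 248 passed, 196 of them with a more negative difference on doxycycline, and 95 of these were not called without it. TYMS belongs here, since it was at 9.47 on both shHDAC2 DOX(-) arrays and 9.34 on both shControl DOX(-) arrays (0.14, adjusted p = 0.388), and the interaction was -1.71 (adjusted p = 6.77e-05). CEMIP (interaction -2.26), LRRC58 (-1.76) and CBX5 (-1.57) likewise were not called without doxycycline, where their differences were 0.04, -0.15 and 0.07. LGR5 was lower in shHDAC2 DOX(-) cells, at 3.43 and 3.22 against 3.93 and 3.96 in shControl DOX(-) cells, so that its interaction was 3.23 (adjusted p = 8.02e-06).

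Other genes differed between the lines before doxycycline in the same direction. HMOX1 was at 7.62 and 7.89 in shHDAC2 DOX(-) and 5.54 and 5.87 in shControl DOX(-) cells, a difference of 2.05, and the interaction added 1.21 (adjusted p = 0.00471). F2RL2 (1.83 without doxycycline), ATF3 (1.02), TMTC3 (-1.40) and STK38 (-1.09) differed in the same way, and their interactions did not pass (adjusted p = 0.282, 0.673, 0.161 and 0.0683). LIFR differed more without doxycycline (-2.26) than with it, with an interaction of 0.78 (adjusted p = 0.012). VCAN, TIMP3 and NID1 differed widely between the settings. Without doxycycline VCAN and TIMP3 were higher in shHDAC2 cells by 2.67 and 3.18. NID1 was then at 4.04 and 3.55 in shHDAC2 and at 9.27 and 9.25 in shControl cells, a difference of -5.46.

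**Figure D5:**
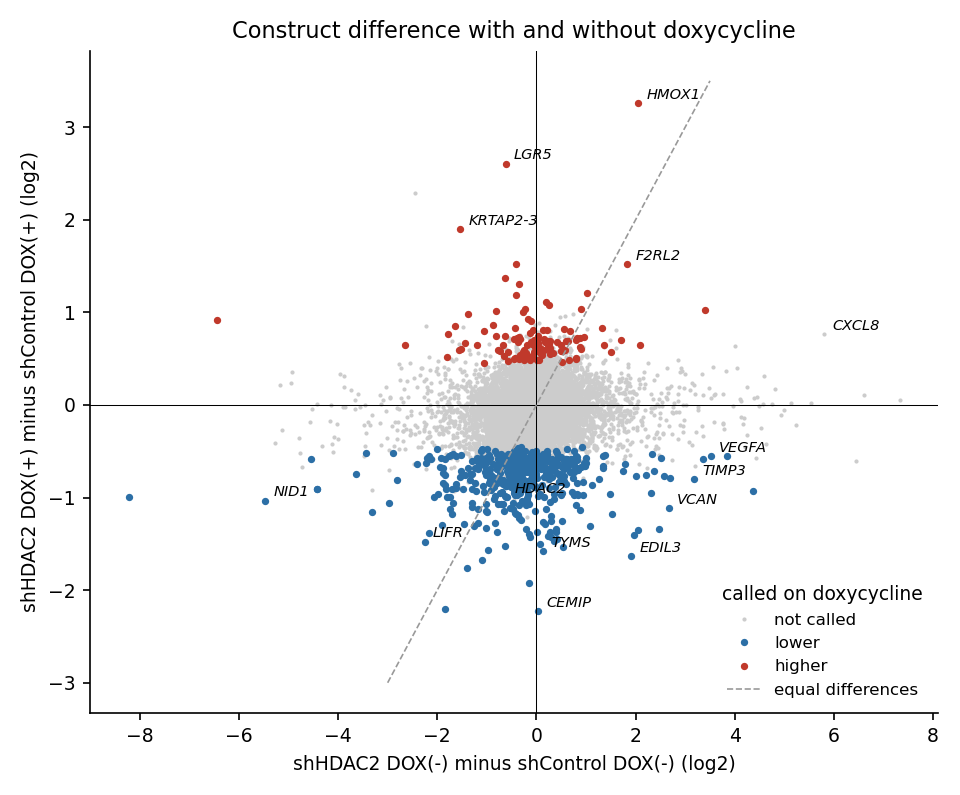
The vertical axis is the difference between shHDAC2 and shControl cells with doxycycline and the horizontal axis that without it, both on the log2 scale, with 1 point per gene, coloured by the call on doxycycline. HMOX1 lies at 3.26 and 2.05, while LGR5 (2.61 and -0.62) and TYMS (-1.58 and 0.14) lie off the line of equal differences.

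MicroRNA genes gave 13 calls of 1072 (1.21%), 6 higher and 7 lower, a share below the 3.83% of all genes. Such clusters read the precursor region or its host transcript, so mature microRNA was not measured. Of the 13, 7 had signals above the median of all clusters on every array, and RefSeq gave mature sequences for 6 of these. They are shown 5′ to 3′ with the seed, bases 2 to 8, in capitals, since the seed sets which mRNAs a microRNA pairs with (GRCh38.p14).
hsa-miR-3198 (chr22:17764190-17764211): gUGGAGUCcuggggaauggaga
hsa-miR-1290 (chr1:18897078-18897096): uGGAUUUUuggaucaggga
hsa-miR-647 (chr20:63942691-63942711): gUGGCUGCacucacuuccuuc
hsa-miR-3939 (chr6:166997830-166997851): uACGCGCAgaccacaggauguc
hsa-miR-4692 (chr11:72783566-72783587): uCAGGCAGuguggguaucagau
hsa-miR-4420 (chr1:30739158-30739179): gUCACUGAugucuguagcugag
No seed is shared among the 13 mature sequences of the called genes in RefSeq.

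The genes of the miRNAs shown above differed as follows. MIR3198-1 was at 4.43 and 3.94 in shHDAC2 and 5.42 and 5.53 in shControl cells (-1.29, adjusted p = 0.00433), and it was the 1 microRNA gene called whichever array was left out. MIR1290 was at 3.78 and 4.36 in shHDAC2 and 5.53 and 5.10 in shControl cells (-1.25, adjusted p = 0.0141). MIR612, without a mature entry here, differed by -0.97 (adjusted p = 0.0149), and MIR647 and MIR3939 by -0.56 and -0.54. On the higher side MIR4692 was at 7.12 and 7.19 in shHDAC2 and 6.33 and 6.39 in shControl cells (0.80, adjusted p = 0.0343), although a second cluster of it differed by 0.39 (adjusted p = 0.217). MIR4420 differed by 0.60 (adjusted p = 0.028). MIR320C2 had the smallest p on the higher side (0.68, adjusted p = 0.0125), with signals of 2.44 and 2.45 in shHDAC2 and 1.83 and 1.70 in shControl cells, all below the median.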

How the data were processed

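Total RNA of 8 A172 cultures, 2 biological replicates in each of 4 groups, was hybridized to Human Gene 2.0 ST arrays. The authors used Affymetrix Expression Console to run RMA and deposited the resulting log2 signals, quantile-normalized across arrays, so a shift of most transcripts 1 way would not be seen. For tool versions and the genome build: not given in the sources used here. Of 53617 transcript clusters, 16098 carry a single symbol in the platform annotation, all matched to RefSeq by gene ID, and the other 37519 were not named. limma 3.58.1 (R 4.3.3) fitted group means over these clusters and all 8 arrays, with Benjamini-Hochberg adjustment and a two-sided threshold of 0.05. Each of 14884 genes is given by its cluster of highest mean. List shares are of measured genes, and other listed genes were not tested. Measured were, for example, 24 of 47 matrix, 23 of 43 replication and 12 of 25 DNA repair genes. An exact permutation test of 2 against 2 arrays cannot go below 0.333. Members and gene lists were chosen with earlier results of these data known. Named genes were HDAC2, HMOX1, LGR5, TYMS, the 12 largest rises and 12 largest falls without overlap of arrays, and up to 4 members of smallest p in each list of at least 5 measured genes. Genes beyond this rule were named after their values were seen. Alternatives comprised a replicate block, leaving arrays out, other groups of arrays, signal filters, second normalizations, other variance models and the methods' t-test. The fit was tested on simulated data. The number of arrays limits the precision.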

Additional observations from a re-analysis of the deposited data

Results flagged for a closer look

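For the genes below, the difference between shHDAC2 and shControl cells with doxycycline and that without it differed by limma's interaction test at an adjusted p under 0.05. Values are the first difference minus the second on the log2 scale. The shHDAC2 DOX(-) arrays, which enter every such value, stood apart from the other 6, and the part of this in the values was not tested.

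Among genes higher in shHDAC2 cells on doxycycline, the value was positive for HMOX1 (1.21), LGR5 (3.23), KRTAP2-3 (3.43), GDF15 (1.93), CLDN1 (2.02), PLCE1-AS1 (1.66), S1PR1 (1.60), PNRC2 (0.92), MKNK2 (0.83), SRXN1 (1.84), TKT (0.58), OSGIN1 (0.88), SESN1 (0.70), TRIAP1 (0.86), JUND (0.58), FLT1 (1.83) and CCN2 (0.93). It was negative for THBS1 (-1.43), TXNIP (-2.38) and STK40 (-0.50), which differed more without doxycycline than with it. Among genes lower in shHDAC2 cells on doxycycline, it was negative for TYMS (-1.71), CEMIP (-2.26), LRRC58 (-1.76), EDIL3 (-3.53), DEPDC1 (-2.06), CHORDC1P4 (-0.89), CBX5 (-1.57), VLDLR (-3.41), TOP2A (-0.57), CLSPN (-1.14), CCNE2 (-0.76), VCAN (-3.79), FBN1 (-0.97), TIMP3 (-3.98), FZD1 (-1.31), CCL2 (-1.33), VEGFA (-4.07), LOX (-1.57), INSIG1 (-1.33), MIR612 (-1.72), MIR3198-1 (-1.46), MET (-0.87), NRP1 (-0.97), NRP2 (-3.80), YAP1 (-1.76), RBPJ (-2.71), MTOR (-1.46), LPAR1 (-0.80), LOXL1 (-1.21), MMP14 (-1.41) and CD68 (-3.08). It was positive for LIFR (0.78), NID1 (4.43) and MIR3939 (0.98), which were lower still without doxycycline. Genes not called on doxycycline also passed: FOSL1 (-0.74), CXCL8 (-5.03), PMAIP1 (-0.88), BAK1 (1.07), HK2 (-3.29), LDHA (-1.32), CD44 (-0.70), VIM (-0.92), TXNRD1 (1.35) and APAF1 (1.01).

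Among the 37519 transcript clusters without exactly 1 gene symbol, which no comparison above used, 101 were called in a fit to every row of the table, 35 higher and 66 lower in shHDAC2 than in shControl cells on doxycycline. This is 0.269% of them, and they are not named here.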

How the results depend on the processing

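The 2 arrays per group limit every call, and signals near the median of 3.66 leave the size of a difference uncertain. The 570 calls between shHDAC2 DOX(+) and shControl DOX(+) cells became 94 to 296 without 1 of the compared arrays and 413 to 526 without 1 of the others. They were 329 with only the 4 DOX(+) arrays, 916 against all 4 shControl arrays, 887 among 10303 genes with clusters at or above the median signal, 204 over every row of the table, 1108 with a variance trend and robust moderation, and 0 by the methods' t-test. The cause of these shifts was not tested. Other settings gave 526 to 629 calls, among them 1 transcript cluster per gene (629), which was chosen after seeing the data. Same-numbered arrays deviated with correlations of 0.00669 to 0.214, so the numbers were not taken to pair them, and with the replicate number as a block 604 genes were called. Leaving 1 array out gave 3378 to 4497 calls without doxycycline, 2182 to 2604 for the interaction and 0 for doxycycline in shControl cells. Scaling moved the median of all genes by 0.02. SAMD9L aside, no called gene named here reversed under any alternative run, and 31 of the other 84 called genes named were called whichever array was left out. BAX, not called, ranged from -0.174 to 0.0171 with 1 array left out and reversed without shControl DOX(+) replicate 2 (0.0171) and without shHDAC2 DOX(+) replicate 1 (0.00693).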

Other observations

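The genes below were chosen after their values were seen, so they do not stand for a group. MET, the receptor of hepatocyte growth factor, was at 8.14 and 8.18 in shHDAC2 and 9.29 and 9.18 in shControl cells on doxycycline, a log2 difference of -1.08 by limma (adjusted p = 0.002). The neuropilins, co-receptors of semaphorins and VEGF, were lower, NRP1 with a difference of -0.87 (8.40 and 8.51 in shHDAC2, 9.33 and 9.32 in shControl) and NRP2 with one of -1.34 (4.32 and 4.28 in shHDAC2, 5.57 and 5.71 in shControl). The epidermal growth factor receptor EGFR differed by -0.50 (adjusted p = 0.0457) and the lysophosphatidic acid receptor LPAR1 by -0.97 (adjusted p = 0.00469), a second cluster of LPAR1 not being called. FLT1, a VEGF receptor, was higher, at 5.40 and 5.63 in shHDAC2 and 4.64 and 4.37 in shControl cells (1.01, adjusted p = 0.00618). MET, NRP1 and NRP2 were called whichever array was left out.

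YAP1, the Hippo pathway coactivator, was at 5.28 and 5.22 in shHDAC2 and 6.75 and 6.50 in shControl cells (-1.38, adjusted p = 0.000948), and a second cluster of it missed the threshold (-1.13, adjusted p = 0.0571). RBPJ, the DNA-binding partner of Notch, differed by -1.18 (adjusted p = 0.00266) and the kinase MTOR by -0.95 (adjusted p = 0.00506). CCN2, known as a YAP1 target, was higher in the same arrays (0.51). BDNF, a neurotrophin, differed by 0.37 (adjusted p = 0.147) without passing.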
